A study of Bos taurus with 6 samples.

Results

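The collagen genes were taken as all rows of the deposited expression table whose gene name is COL, a type number, A and a chain number, such as COL5A1. The rule found 40 of 24616 genes, and it used names only, no measured value. Collagens are matrix proteins in which 3 chains wind into a triple helix of Gly-X-Y repeats. Fibrillar types (among them I, II, III, V, XI and XXVII) form the fibrils of connective tissue, and type IV forms the sheet of the basement membrane. Many of the other types link fibrils, anchor cells or span the cell membrane. In the mammary gland, type I and III fibrils are mainly the product of stromal fibroblasts, while epithelial cells rest on a basement membrane of type IV. Type XVII ties epithelial cells to such a membrane, and type VII forms the anchoring fibrils beneath it.

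The data came from 6 RNA-seq libraries of Bos taurus mammary epithelial cells, 3 from control cells and 3 from cells with added acetate and BHBA (beta-hydroxybutyrate, a ketone body). The treated samples carry NaAc in their titles, the sodium salt of acetate, and no control with matched sodium is labelled, so sodium cannot be told apart from acetate and BHBA. The series presents the treated cells as high-milk-fat samples; the question here is how collagen transcripts compare between the groups. The sources used here give no dose, treatment time, breed or animal age, and do not say that libraries came from separate cultures, so p-values measure the spread between these libraries only, which may be technical.

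Values were FPKM, fragments scaled by gene length and by all fragments mapped, and allow levels to be compared between genes; they hold no read counts, so depth is unknown. Summed FPKM ran from 787186 to 1134030 per library. Control replicate 1 stood apart: it was the lowest of the 6 libraries in 48.1% of the 11615 genes tested, and in 16 of the 21 collagens tested. In a list of very long mRNAs written after the data were seen, with 20 genes found, it was the lowest in 17 and the highest in 3, namely AHNAK, PLEC and HSPG2. The long mRNAs also differed inside the treated group, where replicate 1 was the highest of all 6 libraries for 17 of the 20. Of the tested collagens, the median log2 difference of control replicate 1 from control replicates 2 and 3 was -0.42, against -0.19 over all genes tested and -1.02 over the long mRNAs. Results are therefore given with and without control replicate 1.

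**Figure D1:**
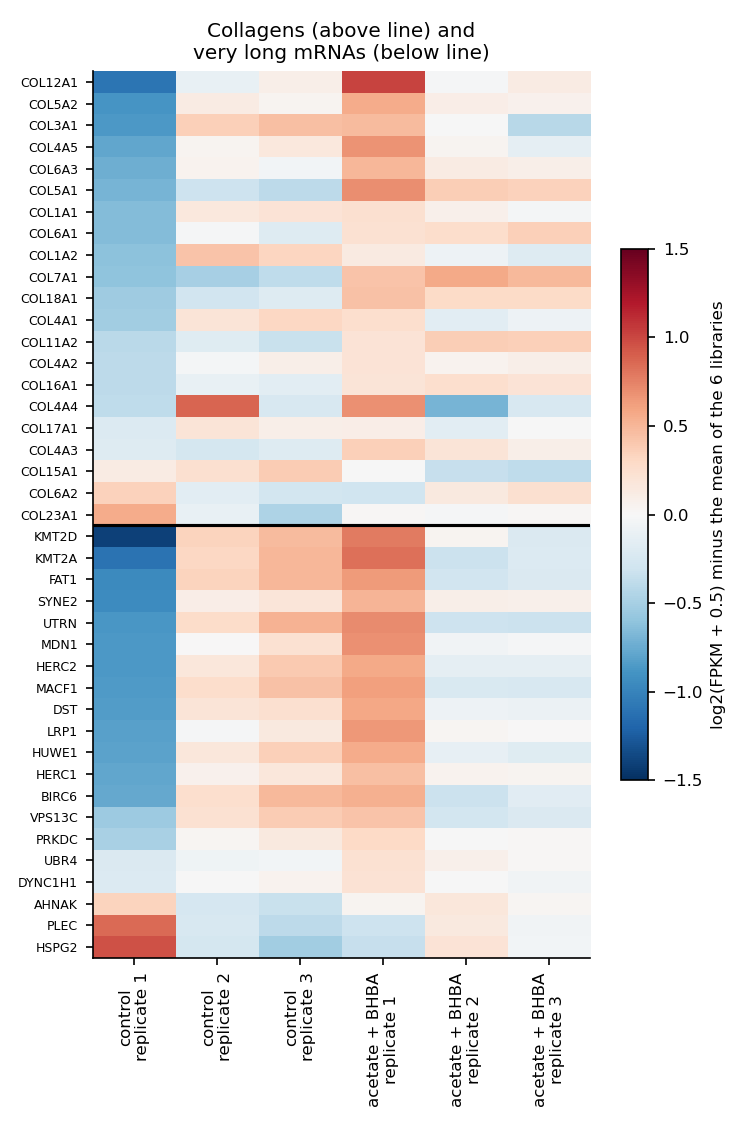
Heat map of log2(FPKM + 0.5) in each library minus the gene's mean over the 6 libraries, for the 21 tested collagens (above the line) and 20 very long mRNAs (below it). Control replicate 1 is the lowest library for 16 of the 21 collagens and 17 of the 20 long mRNAs, and the highest for COL6A2, COL23A1, AHNAK, PLEC and HSPG2.

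No collagen gene passed the test between treated and control cells. Of the 40 members, 21 reached a mean of 1 FPKM over the 6 libraries and were tested, and 0 had an adjusted p under 0.05 (limma, Benjamini-Hochberg over all 11615 genes tested), where 0.474% of all genes tested were called. At an unadjusted p under 0.05, limma gave 7 collagens higher in treated cells, against 7.42% of all genes tested, and 0 lower, against 3.62%. On the higher side lay 17 of 21, where 61.9% of all genes tested did. The median log2 difference, treated minus control, was 0.38 over the collagens and 0.08 over all genes tested. Differences are of log2(FPKM + 0.5), so those of low genes are understated. Without control replicate 1, the side count was 15 of 22 against 49.6% and the median 0.24 against -0.0026. COL7A1, and COL27A1 without control replicate 1, reached the minimum level only through the treated libraries, and COL15A1 only through the controls. Their places in the counts of this paragraph are therefore partly set by the filter.

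Treated and control libraries did not overlap in 8 tested collagens that were higher in treated cells: COL5A1, COL18A1, COL11A2, COL6A1, COL16A1, COL4A3, COL6A3 and COL7A1. Among all genes tested, 13.0% had this pattern. COL15A1 was the 1 tested collagen whose treated libraries all lay below the controls, a pattern found in 6.69% of genes tested. COL7A1 reached the minimum level only through the treated libraries and COL15A1 only through the controls, so those calls of no overlap are partly set by the filter. Counted over the 37 members above 0 in any library, with no filter, 12 were higher and 1 lower without overlap, against 11.7% and 5.77% of all rows above 0.

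**Figure D2:**
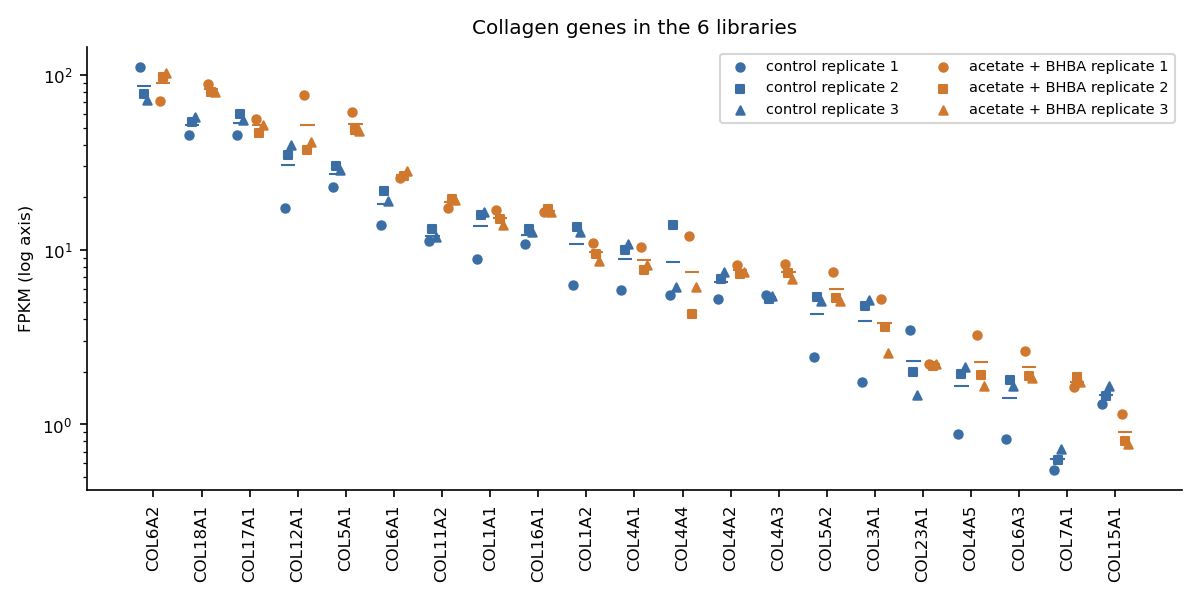
FPKM on a log axis of the 21 tested collagens in each library, ordered by mean level, with controls in blue, treated libraries in orange, replicate numbers as symbols and group means as short lines. COL6A2 is the highest, at 72.07 to 111.04 FPKM in controls, and the treated points of COL18A1, COL5A1 and COL7A1 lie above all control points.

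COL6A2, a chain of the beaded filaments of type VI, had the highest mean in each group. In controls it stood at 87.1 FPKM, followed by COL17A1 at 53.5, COL18A1 at 52.1, COL12A1 at 30.7 and COL5A1 at 27.2. In treated cells it stood at 90.5 FPKM, followed by COL18A1 at 83.2, COL5A1 at 52.5, COL12A1 at 51.7 and COL17A1 at 51.6, and the last 3 of these overlapped. In treated replicate 1, COL6A2 (71.13 FPKM) lay below COL18A1 (89.04) and COL12A1 (76.70). COL1A1, the main chain of type I, was far lower, at 13.7 FPKM in controls and 15.2 in treated cells. In control cells COL18A1 (45.19 to 57.57 FPKM) and COL17A1 (45.27 to 59.69) overlapped in level, whereas in treated cells every COL18A1 value (80.27 to 89.04) lay above every COL17A1 value (46.70 to 55.95). Summed over the 40 members, collagen FPKM was 331, 391 and 378 in the controls, in replicate order, and 510, 446 and 461 in the treated libraries. These sums are not shares of equal totals. Over all genes, FPKM summed to 1134030, 847971 and 816087 in the controls and 787186, 936152 and 912431 in the treated libraries. COL6A2 made up 33.6% of the collagen sum in control replicate 1, 19.0 to 20.0% in the other controls and 14.0 to 22.4% in the treated libraries.

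Among fibrillar collagens, the minor fibril chains COL5A1 and COL11A2 were higher in every treated library, and type I and type III chains were not. COL5A1 (ENSBTAG00000047998), the chain of type V that is known to start fibril assembly, measured 22.99, 30.11 and 28.45 FPKM in the controls and 61.08, 48.57 and 47.91 in the treated libraries, here and below always in the order of replicates 1 to 3. Its lowest treated value exceeded its highest control value by a wide margin relative to the spread among controls. The log2 difference was 0.94 ± 0.16 (SE, n = 3 per group; 95% interval 0.55 to 1.33; limma adjusted p = 0.0818). Without control replicate 1 it was 0.82 ± 0.14, past the threshold (limma adjusted p = 0.0489), where 1.25% of genes were called higher.

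COL11A2 (ENSBTAG00000000601), a chain of type XI best known from cartilage fibrils, measured 11.18, 13.10 and 11.76 FPKM in controls and 17.26, 19.49 and 19.29 in treated libraries. The groups stood apart, and the spread inside each was small (SD 0.985 and 1.23 FPKM). Its log2 difference was 0.62 ± 0.13 (95% interval 0.31 to 0.93; limma adjusted p = 0.124) and 0.57 without control replicate 1. COL5A2, the partner of COL5A1 in type V, measured 2.42, 5.36 and 5.06 FPKM in controls and 7.43, 5.28 and 5.12 in treated libraries. These ranges overlapped, and the log2 difference of 0.48 ± 0.32 (limma adjusted p = 0.725) was 0.16 without control replicate 1. The third type V chain, COL5A3, was too low to be tested, at 0.37, 0.27 and 0.38 FPKM in controls and 0.58, 0.67 and 0.42 in treated libraries. COL11A1 was also below the minimum, at 2.66, 0.10 and 0.48 FPKM in controls and 0.91, 0.37 and 0.48 in treated libraries, with control replicate 1 the highest.

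The chains of type I, the main collagen of skin, bone and tendon, overlapped between the groups. COL1A1 measured 8.83, 15.82 and 16.43 FPKM in controls and 16.86, 15.02 and 13.82 in treated libraries. COL1A2 measured 6.32, 13.57 and 12.61 FPKM in controls and 10.98, 9.45 and 8.63 in treated libraries. For each chain control replicate 1 was the lowest of all libraries, and the other 5 values of COL1A1 lay close together. The COL1A1 log2 difference was 0.19 ± 0.25 (95% interval -0.42 to 0.80; limma adjusted p = 0.905) and turned to -0.08 without control replicate 1. That of COL1A2 was -0.09 ± 0.30 (95% interval -0.81 to 0.63; limma adjusted p = 0.956) and moved to -0.42 without control replicate 1, while without control replicate 2 it was 0.10. COL3A1, the chain of type III that accompanies type I in soft tissue, measured 1.76, 4.78 and 5.15 FPKM in controls and 5.20, 3.61 and 2.58 in treated libraries. Its log2 difference of 0.03 ± 0.42 became -0.39 without control replicate 1, and did not pass either way.

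**Figure D3:**
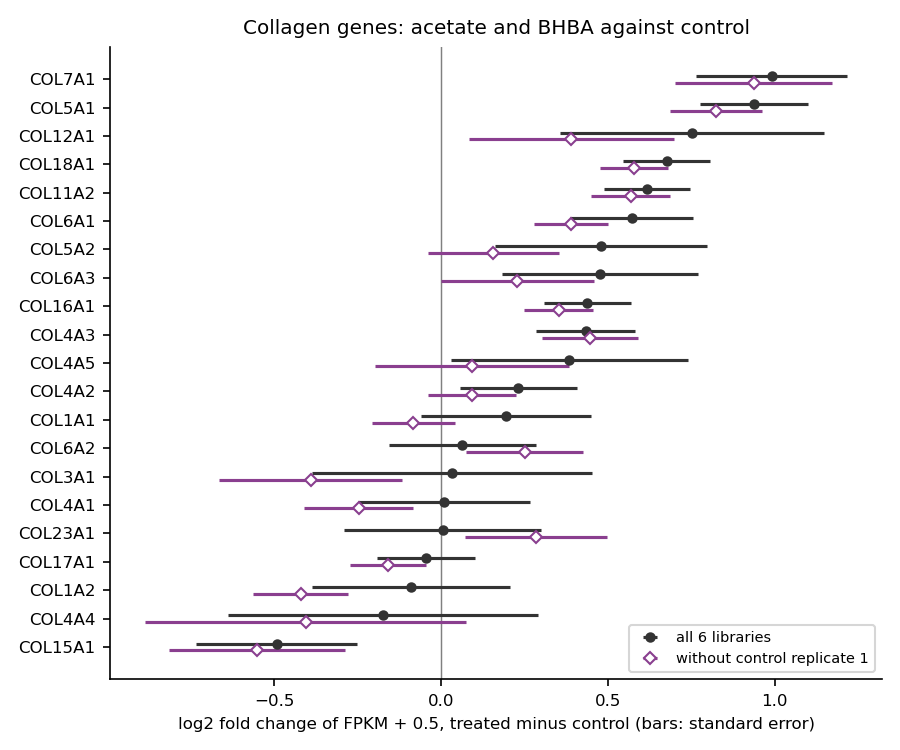
Log2 difference of FPKM + 0.5, treated minus control, for the 21 tested collagens, from all 6 libraries (filled) and without control replicate 1 (open); bars are standard errors. COL7A1 and COL5A1 have the largest differences in each fit (0.99 and 0.94, or 0.94 and 0.82), while COL1A1, COL3A1 and COL4A1 change sign when control replicate 1 is left out.

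Type IV, the network of the basement membrane, had 4 of 5 tested chains on the higher side, all but COL4A3 with groups that overlapped. COL4A1 and COL4A2 co-assemble in nearly all basement membranes and are neighbours in the genome. COL4A1 measured 5.89, 9.96 and 10.82 FPKM in controls and 10.39, 7.68 and 8.15 in treated libraries; COL4A2 measured 5.22, 6.84 and 7.46 in controls and 8.19, 7.27 and 7.51 in treated libraries. Log2 differences were 0.01 ± 0.26 for COL4A1 (95% interval -0.61 to 0.63) and 0.23 ± 0.18 for COL4A2 (95% interval -0.19 to 0.66), or -0.25 and 0.09 without control replicate 1, none past the threshold.

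COL4A3 and COL4A4, also neighbours and known from the kidney filter, were expressed at levels near those of COL4A1 and COL4A2. COL4A3 was steady in controls, at 5.51, 5.22 and 5.47 FPKM, and higher in all treated libraries, at 8.30, 7.36 and 6.80. Its log2 difference was 0.43 ± 0.15 (limma adjusted p = 0.336), and it hardly moved without control replicate 1 (0.45). COL4A4 was the least steady collagen of this class, at 5.49, 13.80 and 6.09 FPKM in controls and 11.97, 4.28 and 6.09 in treated libraries. Its log2 difference of -0.17 ± 0.47 was 0.22 without control replicate 2, 0.13 without treated replicate 2 and -0.41 without control replicate 1. COL4A5 stood at 0.88 to 2.13 FPKM in controls and 1.65 to 3.27 in treated libraries, and its neighbour COL4A6 at no more than 0.03 in any library.

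The multiplexins, basement membrane collagens whose helix is interrupted many times, lay on opposite sides. COL18A1 (ENSBTAG00000023907), whose end fragment is endostatin, measured 45.19, 53.57 and 57.57 FPKM in controls and 89.04, 80.35 and 80.27 in treated libraries. Every treated value lay above every control. The log2 difference was 0.68 ± 0.13 (95% interval 0.36 to 0.99; limma adjusted p = 0.105), or 0.58 (adjusted p = 0.0515) without control replicate 1. COL15A1 ran the other way at a low level, with 1.31, 1.45 and 1.65 FPKM in controls and 1.15, 0.80 and 0.77 in treated libraries (log2 difference -0.49 ± 0.24, limma adjusted p = 0.550).

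The anchoring collagens of epithelium differed from each other. COL7A1 (ENSBTAG00000019081), which builds the anchoring fibrils under stratified epithelium, measured 0.55, 0.63 and 0.72 FPKM in controls and 1.64, 1.87 and 1.74 in treated libraries. It was low throughout, but the gap between groups was many times the spread within them (SD 0.0850 and 0.115 FPKM). Its log2 difference was 0.99 ± 0.23 (95% interval 0.45 to 1.53; limma adjusted p = 0.154), 0.94 without control replicate 1, and past the threshold when no mean-variance trend was used (0.99 ± 0.13, limma adjusted p = 0.0417). Since it entered the test only through its treated libraries, each of these tests is partly set by the filter. COL17A1, the transmembrane collagen of hemidesmosomes, was far higher and overlapped between the groups, at 45.27, 59.69 and 55.39 FPKM in controls and 55.95, 46.70 and 52.04 in treated libraries. Its log2 difference was -0.05 ± 0.15 (95% interval -0.40 to 0.31; limma adjusted p = 0.955). COL23A1, another transmembrane collagen, stood at 1.47 to 3.49 FPKM in controls and 2.17 to 2.23 in treated libraries, with its highest value in control replicate 1. Its log2 difference was 0.00 ± 0.30, and 0.29 without that library.

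Type VI, which forms beaded filaments near cell surfaces, held the highest collagen and 2 that separated the groups, COL6A1 and, narrowly, COL6A3. COL6A1 measured 13.84, 21.75 and 19.14 FPKM in controls and 25.88, 26.54 and 28.28 in treated libraries. COL6A2, its neighbour in the genome, measured 111.04, 78.09 and 72.07 FPKM in controls and 71.13, 97.01 and 103.23 in treated libraries. COL6A1 was lowest and COL6A2 highest in control replicate 1, and of this pair only COL6A1 separated the groups. The COL6A1 log2 difference was 0.57 ± 0.18 (limma adjusted p = 0.308), or 0.39 without control replicate 1. That of COL6A2 was 0.06 ± 0.22 (95% interval -0.47 to 0.59), or 0.25 without control replicate 1, and turned slightly negative when control replicate 2 (-0.0025), control replicate 3 (-0.06) or treated replicate 3 (-0.04) was left out. COL6A3, a longer chain, stood at 0.83, 1.80 and 1.65 FPKM in controls and 2.63, 1.90 and 1.85 in treated libraries, a log2 difference of 0.47 ± 0.29 that was 0.23 without control replicate 1. Its groups did not overlap, but the highest control (1.80 FPKM) lay just under the lowest treated value (1.85).

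Of the fibril-associated collagens, which sit on the surface of fibrils, COL12A1 and COL16A1 were tested. COL16A1 (ENSBTAG00000010050) measured 10.75, 13.18 and 12.70 FPKM in controls and 16.41, 17.04 and 16.54 in treated libraries. The treated values were nearly equal and all above the controls (log2 difference 0.44 ± 0.13, 95% interval 0.12 to 0.75, limma adjusted p = 0.268; 0.35 without control replicate 1). COL12A1 was far less steady, at 17.33, 34.71 and 40.01 FPKM in controls and 76.70, 37.20 and 41.19 in treated libraries. Its treated mean rested on replicate 1, the library in which the long mRNAs were also highest, and its groups overlapped. The log2 difference of 0.75 ± 0.40 (limma adjusted p = 0.598) was 0.39 without control replicate 1 and 0.43 without treated replicate 1.

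With the mean log2 level of the long mRNAs added to the model as a covariate, an alternative chosen after the data were seen, 6 of the 21 tested collagens passed, all higher in treated cells. They were COL5A1 (log2 difference 0.84 ± 0.07, limma adjusted p = 0.00285), COL18A1 (0.61 ± 0.06, adjusted p = 0.00459), COL11A2 (0.62 ± 0.10, adjusted p = 0.0143), COL7A1 (0.97 ± 0.18, adjusted p = 0.0205), COL12A1 (0.46 ± 0.09, adjusted p = 0.0228) and COL16A1 (0.40 ± 0.09, adjusted p = 0.0342). COL7A1 counts here with the same limit of the filter. In that model 8.26% of all genes tested were called higher and 4.27% lower. The sizes of the COL5A1, COL18A1, COL11A2 and COL7A1 differences stayed close to those without the covariate, while their standard errors were smaller than with no covariate. That of COL12A1 was smaller, at 0.46 in place of 0.75.

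The remaining 19 members were below the minimum level. COL27A1, a fibrillar collagen, stood just under it, at 0.31, 0.77 and 0.82 FPKM in controls and 1.65, 1.03 and 0.99 in treated libraries. COL8A2 stood at 0.03 to 0.47 FPKM in controls and 0.58 to 1.04 in treated libraries, and the cartilage collagen COL2A1 at 0.03 to 0.10 and 0.26 to 0.41. COL27A1, COL8A2, COL5A3 and COL2A1 were the untested members whose treated values all lay above the controls. COL8A1, COL9A1, COL14A1, COL9A2 and COL10A1 reached at most 0.81, 0.58, 0.52, 0.30 and 0.26 FPKM. COL13A1, COL9A3, COL4A6, COL20A1, COL26A1 and COL6A5 stayed at or under 0.08, and COL22A1, COL25A1 and COL28A1 were listed at 0 in all 6 libraries. A listed 0 need not mean an absent transcript.

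Ratios between chains that co-assemble were taken within each library, as log2 ratios of FPKM + 0.5, which pulls the ratio of a low chain toward 0. In 6 pairs both chains were tested. The log2 ratio of COL1A1 to COL1A2 was 0.45, 0.21 and 0.37 in controls and 0.60, 0.64 and 0.65 in treated libraries. All treated ratios lay above all control ratios, by 0.28 on average (exact permutation test, 2-sided, p = 0.10, the smallest that 3 against 3 allows; adjusted over 6 pairs 0.40). Without control replicate 1 the difference was 0.34. The ratio of COL5A1 to COL5A2 was 3.01, 2.39 and 2.38 in controls and 2.96, 3.09 and 3.11 in treated libraries (difference 0.46, or 0.67 without control replicate 1; exact p = 0.20, adjusted 0.40). Here control replicate 1 sat with the treated libraries.

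The ratio of COL4A1 to COL4A2 differed by -0.22 (exact permutation p = 0.20), with groups that overlapped through control replicate 1 (0.16, 0.51 and 0.51 in controls, 0.33, 0.07 and 0.11 in treated libraries); without it the difference was -0.34. That of COL4A3 to COL4A4 differed by 0.61 (exact p = 0.40), with overlapping groups, and by 0.19 without control replicate 2 or 0.31 without treated replicate 2. COL6A2 exceeded COL6A1 and COL6A3 in every library, although the 3 chains are known to assemble in equal numbers. The COL6A1 to COL6A2 log2 ratio was -2.96 in control replicate 1, -1.82 and -1.89 in the other controls and -1.44, -1.85 and -1.85 in treated libraries. Control replicate 1 was the outlying library in that ratio, and the groups differed by 0.51 (exact p = 0.30), or by 0.14 without it. The COL6A2 to COL6A3 ratio differed by -0.41 (exact p = 0.60), or 0.02 without it. Adjusted p was at least 0.40 for all 6 pairs.

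**Figure D4:**
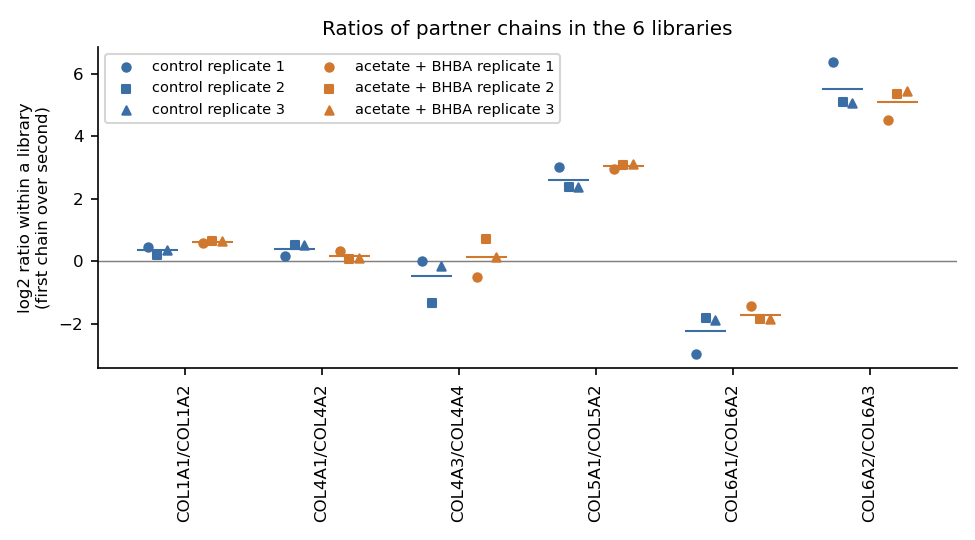
Log2 ratio of FPKM + 0.5 between partner chains within each library, for 6 pairs; blue points are controls, orange points treated libraries, symbols replicate numbers and lines group means. The treated COL1A1/COL1A2 ratios (0.60 to 0.65) lie above the control ratios (0.21 to 0.45). Control replicate 1 stands apart from the other controls in the COL4A1/COL4A2, COL5A1/COL5A2, COL6A1/COL6A2 and COL6A2/COL6A3 ratios.

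Collagen chains are hydroxylated, glycosylated, folded by chaperones and, once secreted, crosslinked by lysyl oxidases. Of 24 genes listed for these steps, 23 were found and 21 tested; 1 rose, against 0.344% of all genes tested, and 0 fell, against 0.129%. The riser was FKBP10, an endoplasmic reticulum isomerase needed for crosslinking of type I collagen, which measured 11.80, 9.64 and 10.15 FPKM in controls and 23.27, 24.55 and 21.63 in treated libraries (log2 difference 1.10 ± 0.13, limma adjusted p = 0.0413). The lowest treated value was well above the highest control. Without control replicate 1 the difference was 1.18 (adjusted p = 0.0134). Its call was lost in 8 of 16 alternatives: quantile normalization, rescaling, the replicate block, and without any 1 library other than control replicate 1 (adjusted p = 0.185 to 0.315 in those).

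LOXL3, a lysyl oxidase-like crosslinking enzyme, measured 46.59, 55.74 and 51.27 FPKM in controls and 88.78, 87.87 and 101.85 in treated libraries (log2 difference 0.85 ± 0.12, limma adjusted p = 0.0562; 0.79 and adjusted p = 0.0338 without control replicate 1). P4HA3, a prolyl hydroxylase subunit, measured 0.36, 0.28 and 0.27 FPKM in controls and 2.78, 1.69 and 1.75 in treated libraries, without passing (1.66 ± 0.27, limma adjusted p = 0.0749). PLOD1, a lysyl hydroxylase named after its values were seen, measured 6.46, 11.57 and 6.76 FPKM in controls and 22.04, 34.19 and 19.70 in treated libraries (1.57 ± 0.30, limma adjusted p = 0.101). In the whole list 17 of 21 tested members lay on the higher side, where 61.9% of all genes tested did. Without control replicate 1 it was 16 of 22, against 49.6%, where LOX was added and reached the minimum level only through the treated libraries. Treated libraries all lay above the controls in 11 of 21, against 13.0% of all genes tested, and all below in 1, PLOD3, against 6.69%. P4HA3, one of the 11, also reached the minimum level only through the treated libraries. Its test, its place in that count and the places of P4HA3 and LOX in the side counts are partly set by the filter. The median log2 difference was 0.33, and 0.36 without control replicate 1. PPIB, the most abundant member and another isomerase, was the highest in control replicate 1 and overlapped between groups (770.46, 458.69 and 412.52 against 369.27, 513.16 and 510.99 FPKM; log2 difference -0.20, or 0.08 without that library).

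**Figure D5:**
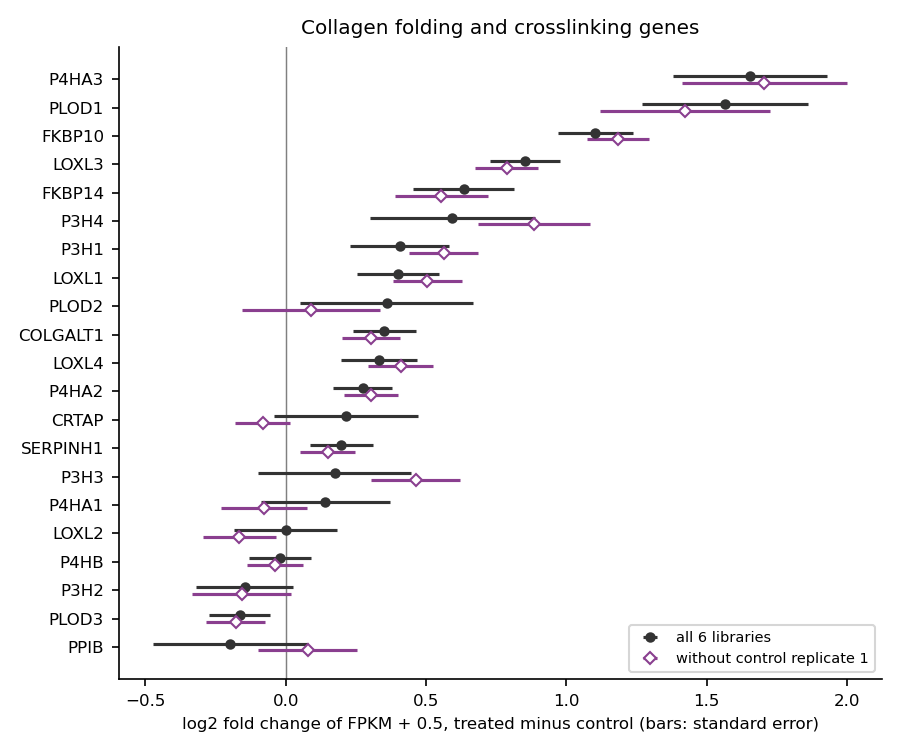
Log2 difference of FPKM + 0.5, treated minus control, for the 21 tested genes of collagen folding and crosslinking, from all 6 libraries (filled) and without control replicate 1 (open); bars are standard errors. FKBP10 (1.10) passed the threshold; P4HA3 (1.66), PLOD1 (1.57) and LOXL3 (0.85) lay on the same side without passing with all 6 libraries.

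In 5 other lists around collagen, 0 members passed in either direction. Their side counts, here and in the next paragraphs, stand beside 61.9% of all genes tested on the higher side. Without control replicate 1 that share was 49.6%. Of procollagen export and propeptide processing genes, 10 of 13 tested lay on the higher side (median log2 difference 0.18), or 5 of 13 without control replicate 1 (median -0.10). BMP1, which removes the C-terminal propeptide, was lower in every treated library, from 81.7 ± 10.9 to 65.4 ± 1.41 FPKM (SD; log2 difference -0.31 ± 0.13, limma adjusted p = 0.444; -0.21 without control replicate 1). CREB3L1, a transcription factor of collagen-secreting cells, had a log2 difference of 0.43 (0.27 without control replicate 1), PREB of 0.18 and the abundant coat GTPase SAR1A of 0.13, which was -0.29 without control replicate 1. Of the collagen receptors, 5 of 7 tested lay on the higher side (median 0.07), or 2 of 7 without control replicate 1 (median -0.18). MRC2, an endocytic collagen receptor, stood at 6.07 ± 0.513 FPKM in controls and 9.67 ± 0.929 in treated cells (0.63 ± 0.15, limma adjusted p = 0.167), while CD44 and DDR1 had log2 differences of -0.19 and -0.14, or -0.25 and -0.08 without control replicate 1.

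Of the collagen-cutting proteases and their inhibitors, 4 of 9 tested lay on the higher side (median -0.06), or 6 of 9 without control replicate 1 (median 0.07). TIMP3, a matrix-bound protease inhibitor, measured 59.80, 128.59 and 118.84 FPKM in controls and 300.26, 222.88 and 213.99 in treated libraries (log2 difference 1.32 ± 0.32, limma adjusted p = 0.173; 0.97 without control replicate 1). MMP2, a gelatinase, had a log2 difference of 0.54 ± 0.13 (limma adjusted p = 0.165) and MMP15 of -0.59 ± 0.14 (adjusted p = 0.180), each with no overlap between groups. CTSB, the most abundant of the list, stood at -0.07, or 0.07 without control replicate 1. Of the matrix partners of collagens, 14 of 20 lay on the higher side (median 0.22), or 10 of 20 without control replicate 1 (median 0.01). DCN and LUM, proteoglycans that bind fibrils, had log2 differences of 0.76 ± 0.24 and 0.57 ± 0.20 at means of 3.32 FPKM or less, and AGRN, of the basement membrane, of 0.68 ± 0.22 (0.44 without control replicate 1). FN1, the highest at 2165 ± 938 FPKM in controls and 2938 ± 1110 in treated cells, had a log2 difference of 0.49 that was 0.07 without control replicate 1.

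TGF-beta is known to induce fibrillar collagen genes. Of 17 listed genes of that pathway, 11 lay on the higher side (median 0.29), or 8 without control replicate 1 (median -0.10). CTGF, a classic target, stood higher in every treated library, from 200 ± 31.5 to 343 ± 22.3 FPKM (log2 difference 0.78 ± 0.15, limma adjusted p = 0.102). TGFBI, also a target, stood lower in every treated library, from 17.9 ± 2.23 to 9.55 ± 1.53 FPKM (-0.88 ± 0.17, limma adjusted p = 0.105). These 2 genes lay on opposite sides. Among the 17, treated libraries all lay above the controls in 4 and all below in 2, against 13.0% and 6.69% of all genes tested. The part of TGF-beta in the collagen differences was not tested.

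The cultures carried epithelial markers at high level, and fewer cells of a type cannot be told apart from less RNA per cell in such bulk samples. The 12 epithelial markers summed to 16376 to 21983 FPKM in controls and 13749 to 16434 in treated libraries, with 3 of 11 tested on the higher side (median log2 difference -0.08) and 0 past the threshold. Without control replicate 1 the control sums were 16376 and 17483, 7 of 11 lay on the higher side and the median was 0.10. KRT5, a basal keratin, had a log2 difference of -0.51 ± 0.20 (limma adjusted p = 0.418), KRT14 of 0.44 and the luminal factor ELF3 of -0.39, or -0.25 without control replicate 1. CDH1 had a log2 difference of -0.31, or -0.41 without that library. The treated libraries all lay below the controls in 3 of the 11 (KRT5, ELF3 and CDH1), against 6.69% of all genes tested. They all lay above in 1, KRT14, against 13.0%. Fibroblast markers summed to 586 to 639 FPKM in controls and 709 to 781 in treated libraries, with 0 past the threshold. Most of each sum was VIM, which overlapped, at 452.76 to 503.03 FPKM in controls and 432.54 to 525.61 in treated libraries. S100A4 was the next highest, at 61.43 to 102.27 FPKM in controls and 181.39 to 284 in treated libraries. On the higher side lay 7 of 10 tested (median 0.29), against 61.9% of all genes tested. In 5 of the 10 (THY1, S100A4, DCN, LUM and TWIST1) the treated libraries all lay above the controls, against 13.0% of all genes tested. THY1, a surface protein of fibroblasts and other cells, measured 6.39, 2.54 and 4.01 FPKM in controls and 14.04, 18.55 and 17.72 in treated libraries (1.91 ± 0.31, limma adjusted p = 0.0711; 2.21 and adjusted p = 0.0151 without control replicate 1). S100A4 had a log2 difference of 1.36 ± 0.26 (limma adjusted p = 0.0997; 1.52 and adjusted p = 0.0478 without control replicate 1) and VIM of -0.03. Of the other markers in the list, FBLN1, TWIST1, PRRX1, POSTN and PDGFRA were expressed, with control means of 18.6, 7.07, 3.64, 5.41 and 2.23 FPKM. Their log2 differences were 0.07, 0.35, -0.43, -0.55 and 0.23, in that order. Without control replicate 1 they were 0.03, 0.39, -0.64, -0.78 and 0.01. The 6 untested markers (MFAP5, PDGFRB, DPT, FAP, TCF21 and PI16) reached at most 0.98 FPKM. The part of fibroblasts in the collagen differences was not tested.

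Few markers of the other cell types listed could be tested, namely 4 of 6 myoepithelial, 1 of 8 endothelial, 1 of 8 immune and 0 of 6 adipocyte. None of those tested passed the threshold. Myoepithelial contractile genes summed to 1972 to 3724 FPKM in controls and 1586 to 2117 in treated libraries; without control replicate 1 the highest control sum was 2199. ACTA2, TAGLN, MYLK and CNN1 had log2 differences of -0.37, -0.49, -0.35 and 0.47, or -0.27, -0.18, -0.61 and 0.71 without that library. Of these 4 tested genes 1 lay on the higher side in each fit (median -0.36, or -0.22 without that library). Of the untested, MYH11 reached at most 0.09 FPKM. OXTR stood at 0 to 0.19 FPKM in controls and 0.78 to 1.18 in treated libraries. Endothelial markers summed to at most 5.41 FPKM in controls and 6.59 in treated libraries, mostly VWF (0.55 ± 0.23), with PECAM1 at 0.06 or less. Immune markers summed to at most 5.68 and 8.49 FPKM, mostly CD14 (0.65 ± 0.18), which epithelial cells can also express, with PTPRC at 0.03 or less. Adipocyte markers summed to at most 0.83 and 2.33 FPKM, mostly LEP, which stood at 0.07 to 0.23 FPKM in controls and 1.0 to 1.97 in treated libraries, while ADIPOQ reached 0.07. LEP was below the minimum for testing.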

How the data were processed

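RNA was measured in 6 libraries. Per the labels' protocols, poly(A) RNA with an integrity number above 8 was sequenced as paired ends. The authors deposited FPKM values rounded to 2 decimals. Per the submitters' processing notes the build was ARS-UCD1.2 and DESeq2 was used, with no role named; the sources used here name no aligner, counter, annotation or strand setting, so reads shared by overlapping genes are uncertain. Columns were mapped to samples by name.

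Genes averaging 1 FPKM or more were compared on log2(FPKM + 0.5) with limma 3.58.1 in R 4.3.3 (mean-variance trend, 2-sided, Benjamini-Hochberg, threshold 0.05, no covariate), a script checked on simulated data. Intervals are 95% moderated ones. Chain ratios had exact permutation tests. Plots used Python 3.11.15 and matplotlib 3.10.9. Neighbouring genes came from RefSeq names of ARS-UCD2.0. No sequences were used here.

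The members, gene lists and tests were chosen with earlier results of these data known. Values in every library are given for the 12 highest collagens, any past the threshold, the 6 with the smallest p and their partner chains. Of each list, the text names members past the threshold, up to 3 with the smallest p and the highest; 1 gene so chosen is not reported here. COL3A1, COL4A5, COL15A1, COL23A1, low collagens, PLOD1, PLOD3, LOX, CDH1, SEC24D, ITGA2, LAMC1, TIMP1, MYLK, OXTR, other expressed fibroblast markers and the near-absent markers were named after their values were seen. Alternatives were other pseudocounts, filters, scalings and variance estimates, the replicate number as a block, leaving out each library, and a long-mRNA covariate added after the data were seen.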

Additional observations from a re-analysis of the deposited data

How the results depend on the processing

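The number of genes called was 55 as reported. It was 33 with a mean of at least 5 FPKM, 23 after rescaling to the same sum, 0 with the replicate block, 1455 with the long-mRNA covariate and 0 to 205 leaving out a library (205 when it was control replicate 1, 1 for control replicate 3 and 0 for each other). In the fits with 0 calls, unadjusted p was under 0.05 for 584 genes with the block and 731 to 921 leaving out a library (limma). The number of collagens called was 1 without a variance trend (COL7A1), 6 with the covariate, 0 to 1 leaving out a library and 0 otherwise. On the higher side were 29 of 37 collagens without a filter (60.7% of all genes) and 12 of 15 with the stricter one (59.8%). The unfiltered count includes members near 0, such as COL26A1 (at most 0.03 FPKM) and COL6A5 (at most 0.01). Other settings gave 14 to 19. Among them were quantile normalization with 14 of 21, against 50.2% of all genes, and rescaling with 18 of 21, against 71.2%. The collagen median log2 difference was 0.063 without a filter and 0.16 with quantile normalization, where the median of all genes was 0.0018 in place of 0.08; rescaling gave 0.15 for that median. Other than having fewer libraries or fewer genes, the cause of these changes was not tested.

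Deviations of same-numbered libraries correlated at -0.73, -0.37 and -0.38. Control replicate 1 and treated replicate 1 lay at opposite ends for most of the long mRNAs. These correlations therefore cannot show whether replicate numbers paired the samples. The block gave 0 collagens called.

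Signs were followed for the tested collagens and for the list genes named by the rule above, with PLOD1. They turned for 8 collagens and 4 of these list genes, none of them called. Other list members also changed sign when control replicate 1 was left out. For example, SEC24D went from 0.22 to -0.37, ITGA2 from 0.37 to -0.56, LAMC1 from 0.44 to -0.34 and TIMP1 from -0.28 to 0.15. COL4A1 was -0.11 with quantile normalization and -0.16 with the covariate, COL3A1 was -0.14 and -0.26 in these, COL23A1 was -0.18 with quantile normalization and -0.0045 with a pseudocount of 1, and COL17A1 was 0.028 after rescaling. VIM was 0.0493 with quantile normalization and 0.0489 after rescaling, CTSB 0.0029 after rescaling and 0.029 with the covariate, and SAR1A -0.16 with the covariate. Leaving out a library gave -0.25 to 0.17 for COL4A1, -0.39 to 0.27 for COL3A1, -0.22 to 0.29 for COL23A1, -0.16 to 0.038 for COL17A1, -0.084 to 0.35 for COL1A1, -0.42 to 0.10 for COL1A2, -0.56 to 0.22 for COL4A4 and -0.060 to 0.25 for COL6A2. It gave -0.37 to 0.078 for PPIB, -0.29 to 0.37 for SAR1A, -0.16 to 0.067 for CTSB and -0.10 to 0.041 for VIM. The differences in chain ratios moved by less than 1 SD within groups, pooled over both, in all alternatives run. Control replicate 1 widens that SD for the COL4A1/COL4A2, COL5A1/COL5A2, COL6A1/COL6A2 and COL6A2/COL6A3 ratios; without it their differences were -0.34, 0.67, 0.14 and 0.02 in place of -0.22, 0.46, 0.51 and -0.41, the last with a change of sign. Removing a trend on protein length was not run, as no protein lengths were used here. FPKM gives no depth, so low members rest on replicate spread alone.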
